A study of Mus musculus with 4 samples.

Results

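The regions described here are 490 stretches of open chromatin that were called in wild-type (WT) myeloid-derived suppressor cells, were not called in the same cells from Sphk2 KO mice, and lie away from the ends of genes. They were chosen from peak lists of 4 ATAC-seq libraries. Overlapping autosomal peaks (by 1 bp or more) were joined, which gave 44742 regions. A region was kept when both WT libraries had a peak in it, neither Sphk2 KO library had one, and its mean summit lay more than 1 kb from any end of a protein-coding gene. In addition the −log10 q of its peak, the caller's score of how far the peak stands above local background, had to reach 7 in both WT libraries. The 490 regions are 1.10% of all autosomal regions and 20.2% of the 2429 WT-only ones. WT-only calls of any score made up 5.43% of all autosomal regions and 6.17% of those more than 1 kb from gene ends. Because the calls and their scores chose the regions, both are given as a description, with no test.

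ATAC-seq uses the Tn5 transposase, which inserts adapters where DNA is open. The groups were Sphk2 KO (n = 2 libraries), from mice lacking sphingosine kinase 2, an enzyme that makes sphingosine 1-phosphate, and WT (n = 2 libraries). Mice of both genotypes had received cells of the T cell lymphoma line EL4, and at day 14 the Gr1+CD11b+ cells were sorted from the ascites, with 20000 cells and 40% of the recommended Tn5 for each library. The labels call the libraries biological replicates without tying them to animals, and strain, age, sex and the kind of Sphk2 allele are not given in the sources used here.

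Open chromatin away from gene ends often marks enhancers, which bind transcription factors and act on a promoter that may lie far off, so the host or nearest gene is a position and not a known target. Other such regions are internal promoters, from which shorter transcripts of a gene begin, or promoters of non-coding RNAs. Myeloid-derived suppressor cells are immature neutrophil-like and monocyte-like cells that restrain T cells, and in myeloid cells distal elements carry much of the difference in chromatin between cell states.

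Some of the 490 regions hold an annotated transcription start although they lie more than 1 kb from any end of a protein-coding gene. Ends of non-coding genes did not count for that limit, so a start of such a gene can be its end. RefSeq start windows for GRCm38.p6, the assembly named mm10, run from 250 bases before a start to 50 bases after it and are given here for most autosomes. Of the 472 regions on the covered chromosomes, 23 met such a window (4.87%) and 19 contained the start itself (4.03%), against 1160 (14.6%) and 1121 (14.1%) of 7967 distal regions called in all 4 libraries at the same WT scores. Distal regions called in all 4 libraries were also wider (median 906 bp, against 409.5 bp). The shares were not adjusted for width. The 23 regions met 28 windows of 24 genes, of which 15 are protein-coding and 9 are long non-coding RNAs. The 6 windows printed here hold the start inside the region and belong to the 4 best ranked such regions of protein-coding genes and to 2 exchange factors for small GTPases that recur in the gene lists. Each reads 5′ to 3′ on the strand of the gene, and capitals mark the bases that lie within the called WT-only region.
Kifap3 (chr1:163779333-163779632, plus strand): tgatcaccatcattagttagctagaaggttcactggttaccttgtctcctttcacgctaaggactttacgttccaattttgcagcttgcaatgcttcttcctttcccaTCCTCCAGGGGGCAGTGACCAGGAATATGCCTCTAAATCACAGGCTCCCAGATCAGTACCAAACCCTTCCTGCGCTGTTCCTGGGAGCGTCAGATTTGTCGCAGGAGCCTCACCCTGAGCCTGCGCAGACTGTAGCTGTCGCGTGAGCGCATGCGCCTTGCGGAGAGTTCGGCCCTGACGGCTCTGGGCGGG
Nkiras2 (chr11:100622705-100623004, plus strand): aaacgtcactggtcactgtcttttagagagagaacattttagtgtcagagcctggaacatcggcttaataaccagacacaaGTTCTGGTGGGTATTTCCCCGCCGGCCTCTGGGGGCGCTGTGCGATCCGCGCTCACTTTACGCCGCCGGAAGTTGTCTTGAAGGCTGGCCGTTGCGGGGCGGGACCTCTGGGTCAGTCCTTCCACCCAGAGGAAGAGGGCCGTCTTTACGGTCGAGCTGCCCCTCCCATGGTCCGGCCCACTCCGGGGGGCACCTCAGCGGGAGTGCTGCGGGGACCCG
Ubxn6 (chr17:56074977-56075276, minus strand): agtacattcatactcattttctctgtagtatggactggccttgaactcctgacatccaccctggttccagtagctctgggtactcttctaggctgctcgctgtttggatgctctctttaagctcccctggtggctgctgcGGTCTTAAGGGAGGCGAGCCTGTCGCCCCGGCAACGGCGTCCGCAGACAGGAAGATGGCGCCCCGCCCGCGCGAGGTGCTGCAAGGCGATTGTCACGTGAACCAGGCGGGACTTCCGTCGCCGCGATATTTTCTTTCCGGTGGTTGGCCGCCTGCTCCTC
Bcar1 (chr8:111732087-111732386, minus strand): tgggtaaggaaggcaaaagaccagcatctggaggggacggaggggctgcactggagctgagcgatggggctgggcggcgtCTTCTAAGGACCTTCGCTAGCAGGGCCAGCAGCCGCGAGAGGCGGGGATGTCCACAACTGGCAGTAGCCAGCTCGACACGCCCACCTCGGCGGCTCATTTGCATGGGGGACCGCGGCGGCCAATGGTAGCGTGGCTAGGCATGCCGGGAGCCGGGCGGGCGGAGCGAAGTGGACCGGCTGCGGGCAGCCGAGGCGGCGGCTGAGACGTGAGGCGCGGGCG
Rapgef5 (chr12:117533678-117533977, plus strand): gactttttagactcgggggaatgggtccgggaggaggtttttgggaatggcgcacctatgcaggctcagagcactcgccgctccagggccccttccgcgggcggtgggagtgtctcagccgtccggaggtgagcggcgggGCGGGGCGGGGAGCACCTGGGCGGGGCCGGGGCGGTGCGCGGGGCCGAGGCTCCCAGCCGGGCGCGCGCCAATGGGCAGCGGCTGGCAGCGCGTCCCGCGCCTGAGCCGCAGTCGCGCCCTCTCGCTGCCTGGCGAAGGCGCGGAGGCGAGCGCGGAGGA
Arhgef3 (chr14:27237760-27238059, plus strand): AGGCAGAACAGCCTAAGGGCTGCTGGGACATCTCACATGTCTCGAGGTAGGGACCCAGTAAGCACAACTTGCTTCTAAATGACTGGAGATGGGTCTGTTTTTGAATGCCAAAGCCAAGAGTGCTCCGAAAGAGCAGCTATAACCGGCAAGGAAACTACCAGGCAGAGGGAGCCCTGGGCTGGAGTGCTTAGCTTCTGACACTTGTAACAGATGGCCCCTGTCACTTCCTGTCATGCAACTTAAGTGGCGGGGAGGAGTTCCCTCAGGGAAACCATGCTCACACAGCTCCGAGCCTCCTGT

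The Kifap3 region (chr1:163779441-163779783) ranked 21 of the 490 and lies inside the gene of a protein that links kinesin motors to their cargo, 17495 bp from its nearer end. Its −log10 q was 18.5 in WT replicate 1 and 24.3 in WT replicate 2. It was the single region called anywhere in the Kifap3 span in any of the 4 libraries, and no library had a peak at either gene end. Its nearest Sphk2 KO peak was 149872 bp away.

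The Nkiras2 region lies inside the gene of a small Ras-like inhibitor of NF-kB, with −log10 q of 17.5 and 20.3 in WT replicates 1 and 2. The ends of Nkiras2 themselves carried peaks in all libraries, with −log10 q of 54.6 and 120 in Sphk2 KO replicates 1 and 2, against 102 and 109 in WT replicates 1 and 2. Ubxn6 encodes a cofactor of the p97 ATPase and showed the same layout. Its internal region scored 14.6 and 27.1 in WT replicates 1 and 2, while its gene-end peaks scored 124 and 233 in Sphk2 KO replicates 1 and 2, against 160 and 183 in WT replicates 1 and 2. In both genes the internal start had no call in the Sphk2 KO libraries beside a gene end that was called in every library.

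Bcar1, an integrin signalling scaffold, had an internal region with −log10 q of 10.9 and 11.9 in WT replicates 1 and 2, and no gene-end peak in any library. Its window had 69.7% GC and 30 CpG dinucleotides, and that of Rapgef5, an exchange factor for the small GTPase Rap, had 75% GC and 39. The Rapgef5 region scored 9.51 and 8.30 in WT replicates 1 and 2. Arhgef3, an exchange factor for RhoA, had a window of 53.7% GC with 5 CpG dinucleotides and a region at 7.90 and 7.55. Among all 28 windows GC ran between 41% and 75% with a median of 53.8%, and the median count of CpG dinucleotides was 12.5. Over all 32851 windows in the table these medians were 52.7% and 7.

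Motifs searched in the 28 windows on both strands were matched letter by letter, and overlapping windows of 1 gene were counted separately. The GC box GGGCGG was in 9 windows (32.1%, against 35.7% of all windows), among them those of Kifap3, Nkiras2, Bcar1 and Rapgef5. The kappa B motif was in 4 (14.3%, against 20.7%), among them that of Nkiras2. The RUNX core TGTGGT was in 5 (17.9%, against 16.8%), and the E-box CACGTG in 3 (10.7%, against 7.15%). The AP-1 form TGANTCA was in 3 windows, all of them overlapping windows of the non-coding gene Gm35082 (10.7%, against 7.81%), and the C/EBP form TTGCNNCAA in 1 (3.57%, against 2.08%). Neither the ETS form GAGGAAGT, held by 3.20% of all windows, nor the interferon-stimulated response element, held by 3.44%, was found. Other spellings of these sites were not searched, so the windows may still hold ETS sites. With 28 windows these counts are descriptions only, and the letters of some motifs can overlap.

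The mature sequence of 1 microRNA also lies wholly within a region of the set. The region chr13:62760453-62760840, with −log10 q of 13.8 and 10.6 in WT replicates 1 and 2, covers mmu-miR-713 and is 11479 bp from the nearest end of Gm5141. The summit lies in another non-coding gene, Platr25, and the miR-713 hairpin (62760739 to 62760846) runs past the end of the region. The mature sequence is shown because it is the only mature microRNA sequence inside the set, with the seed (bases 2 to 8) in capitals.
mmu-miR-713 (chr13:62760807-62760825, plus strand): uGCACUGAaggcacacagc

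The 490 regions were modest peaks in WT cells. The median −log10 q was 10.3 in WT replicate 1 (range 7.02 to 94.1) and 11.5 in WT replicate 2 (range 7.05 to 103). For the 8192 distal regions that passed the same limit and were called in all 4 libraries, the medians were 27.2 and 31.8. Fold enrichment, the authors' ratio of pileup to local background, had medians of 5.08 and 4.99 in WT replicates 1 and 2, against 7.15 and 7.02 for the regions called in all 4. The number of fragments piled up at the summit had medians of 27 and 30, against 54 and 65. Of the 490 regions, 203 reached a −log10 q of 10 in both WT libraries, 58 reached 15, 19 reached 20 and 2 reached 30.

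The rarity of such regions depended on their strength. Of the 9962 distal regions with a −log10 q of 7 or more in both WT libraries, 4.92% lacked a peak in both Sphk2 KO libraries, and these are the 490. Where the smaller WT score lay between 7 and 10, 287 of 1661 regions did so (17.3%, 95% exact binomial interval 15.5% to 19.2%). The share was 7.53% between 10 and 15, 3.18% between 15 and 20, 1.07% between 20 and 30, and 0.0562% (2 of 3559) at 30 or more. The missing calls were unevenly split between the Sphk2 KO libraries, since 1208 of the 9962 regions lacked a peak in Sphk2 KO replicate 1 alone and 72 in Sphk2 KO replicate 2 alone. Between 7 and 10, 48.7% of regions had no peak in Sphk2 KO replicate 1 and 18.8% had none in Sphk2 KO replicate 2. Both Sphk2 KO libraries had fewer retained fragments and fewer peaks than either WT library. With the same number of top peaks taken from every library the rule gave 666 regions, 484 of them among the 490. That number was 20759, the whole list of Sphk2 KO replicate 1, so only the other lists lost their lowest scoring peaks. The cut could only remove calls from Sphk2 KO replicate 2 and is no control for depth.

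**Figure D1:**
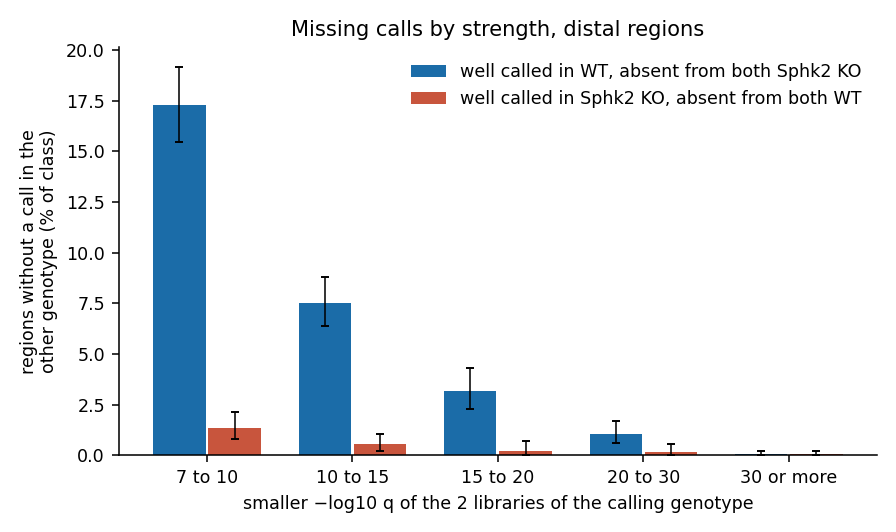
Share of distal regions without a call in the other genotype (y axis, percent of the class) by the smaller −log10 q of the 2 libraries of the calling genotype (x axis). Blue bars are regions well called in WT and absent from both Sphk2 KO libraries, red bars the mirrored set, and lines are 95% exact binomial intervals over regions; the blue share is 17.3% in the lowest class and 0.0562% in the highest.

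The mirrored rule, with a peak at −log10 q of 7 or more in both Sphk2 KO libraries and none in WT, gave 30 distal regions. Without Sphk2 KO replicate 1 the WT-only rule gave 563 regions and the mirrored rule 468, and without Sphk2 KO replicate 2 they gave 1705 and 52. The mirrored rule then asked for a peak in the single remaining Sphk2 KO library, while the WT-only rule still asked for both WT libraries. The counts therefore come from unlike rules, and what the gap between 490 and 30 rests on was not tested. With equal numbers of top peaks from every library the WT-only rule gave 666 and the mirrored rule 91. The 30 are 0.405% of the 7405 distal regions so called in Sphk2 KO cells. The share was 1.35% between 7 and 10 and 0.0417% at 30 or more. At gene ends the same WT-only rule gave 80 of 7779 regions (1.03%), and its mirror 6 of 6859 (0.0875%). A missing call was therefore more frequent among distal regions than at gene ends in both directions, as a description of these lists.

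The 2 WT libraries ranked the regions only loosely alike. The −log10 q was higher in WT replicate 2 for 292 regions and in WT replicate 1 for 198. The larger of the 2 scores was 1.24 times the smaller in the median region, and more than 2 times the smaller in 20. Over the 490 regions Pearson's r of the log2 scores was 0.61 and Spearman's coefficient was 0.491, a description over regions that share 2 libraries and a common lower limit.

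**Figure D2:**
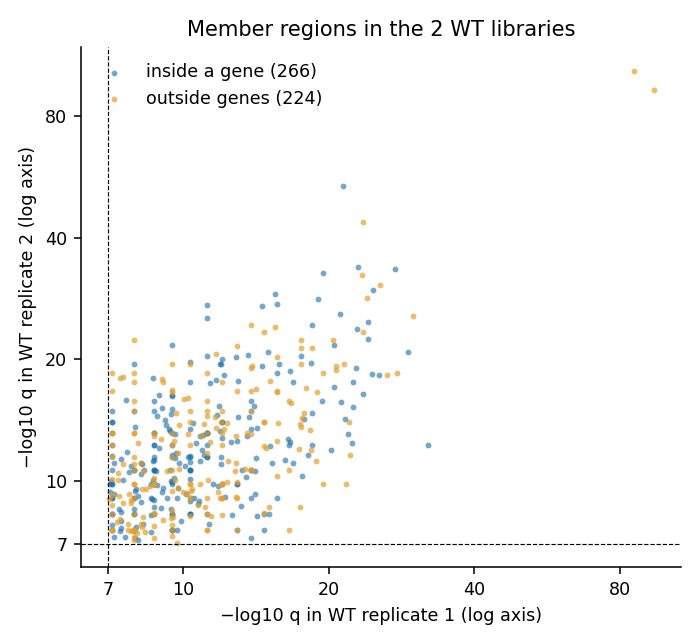
Each point is 1 of the 490 regions, with its −log10 q in WT replicate 1 (x axis) and WT replicate 2 (y axis), both on log axes; blue points lie inside a protein-coding gene and yellow points outside, and dashed lines mark the limit of 7. Most points lie between 7 and 20 on both axes, and 2 regions stand apart above 80.

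At the limits the choice is fine. The regions just inside the score limit were near Sema4d (7.02 and 9.02 in WT replicates 1 and 2) and near Dennd1b (9.72 and 7.04), and those just outside it were near Slc7a5 (7.17 and 6.99) and near Mfsd14b (6.95 and 16.3). The regions just beyond the distance limit were 1095 bp from an end of Ankrd11 and 1108 bp from an end of Aldh3b2. Those just within it, and so left out, were 980 bp from an end of Mapk12 and 887 bp from an end of Sox12.

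Inside genes lay 266 of the 490 regions (54.3%, interval 49.8% to 58.8%), in 256 different protein-coding genes. Another 202 were outside genes with a gene end within 100 kb, and 22 (4.49%) had none within that reach. For the distal regions called in all 4 libraries 55.7% were inside and 4.82% had no gene end within reach, and for 1664 WT-only distal regions below the score limit the values were 46.3% and 17.2%. The median distance to a gene end was 14060 bp, against 13920 bp for the regions called in all 4 and 26250 bp for the WT-only regions below the limit. By position the well-called WT-only regions thus sat close to the shared distal regions and not to the weaker WT-only ones.

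In width they resembled the weaker regions. A width spans all peaks merged in a region, and a region called in all 4 libraries merges peaks of more libraries. Its width is therefore not measured alike. The median was 409.5 bp (range 178 to 1581), against 906 bp for the regions called in all 4 and 437 bp for the WT-only regions below the limit. The widest lay in Myo1e, a membrane-binding myosin (1581 bp), near Itpr2, a calcium release channel (1573 bp), and near Slfn4, a Schlafen gene of myeloid cells (1287 bp). All but 2 of the 490 consisted of a single peak in each WT library.

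**Figure D3:**
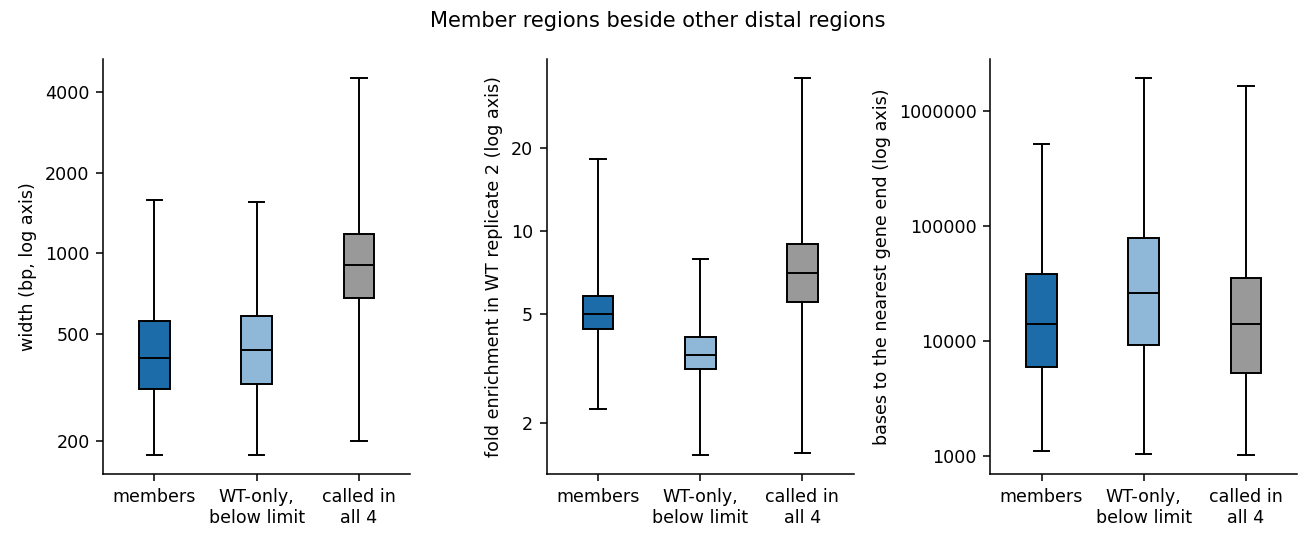
Width, fold enrichment in WT replicate 2 and distance to the nearest gene end (y axes, log scale) for the 490 regions, for 1664 weaker WT-only distal regions and for 8192 distal regions called in all 4 libraries. Boxes span the quartiles with the median as a line and whiskers run to the lowest and highest region. Median width is 409.5, 437 and 906 bp, and the last set merges peaks of more libraries than the others.

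By the rule no region of the set overlapped a Sphk2 KO peak, and the distance to the nearest one is a description only. A Sphk2 KO peak lay within 500 bp of 10 regions, within 1 kb of 31 and within 10 kb of 259, and the median distance was 8642 bp. A region called in all 4 libraries lay within 10 kb of 205 of them (41.8%), against 54.5% of the shared distal regions themselves. Only 7 of the 490 had another of the set within 10 kb, so the regions were mostly scattered singly. By chromosome the share of well-called distal WT regions without a Sphk2 KO peak was lowest on chromosome 19 (9 of 378, 2.38%) and highest on chromosome 12 (33 of 427, 7.73%) and chromosome 10 (45 of 628, 7.17%). The chromosome of Sphk2, chromosome 7, had 28 of 622 (4.50%). The summit lay within a non-coding gene for 59 regions, 42 of which were outside every protein-coding gene.

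The highest scores belonged to 2 narrow regions that stood apart from the rest. The region chr9:3006725-3006902 is 178 bp wide, had −log10 q of 85.5 and 103 in WT replicates 1 and 2, and is 328403 bp from the nearest gene end, that of Alkbh8. It is 1 of 6 regions that start below 3.5 Mb on their chromosome. With a window of 50000 bp around it, Sphk2 KO replicates 1 and 2 had 3 and 3 peaks, against 6 and 5 in WT replicates 1 and 2. The other of the 2 regions, 97524 bp from Vmn2r87, is 186 bp wide. Its window had 0 and 0 peaks in Sphk2 KO replicates 1 and 2, against 1 and 1 in WT replicates 1 and 2. The WT counts of both windows include the region itself, where the rule allowed no Sphk2 KO peak. The only WT peak near Vmn2r87 in each library is that region. No mask of repeats was applied to any region. Farthest from any gene end were chr8:96404630-96405112 (516493 bp, near Got2, −log10 q 7.39 and 18.03), chr16:3122742-3123103 (469398 bp, near Olfr161, 19.5 and 18.5) and chr2:50687394-50688086 (388705 bp, near Mmadhc, 7.90 and 15.8).

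The next best ranked regions lay at genes of varied function. The third lies inside Adam17, the protease that releases TNF from the cell surface, at chr12:21335913-21336442, and its −log10 q was 27.5 and 33.5 in WT replicates 1 and 2. Adam17 had a gene-end peak in every library, at 43.0 and 117 in Sphk2 KO replicates 1 and 2, against 111 and 90.8 in WT replicates 1 and 2. The distal region lacked a Sphk2 KO call in a gene with a called end, and the nearest Sphk2 KO peak was 19194 bp from it. The nearer end of Adam17 was 12557 bp away, so the Sphk2 KO peaks lay at the farther end.

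Opa3, which encodes a mitochondrial protein, held a region with −log10 q of 21.4 and 53.7 in WT replicates 1 and 2, the widest gap between the WT libraries among the 15 best ranked. Its gene-end peaks scored 143 and 296 in Sphk2 KO replicates 1 and 2, against 186 and 226 in WT replicates 1 and 2. The region in Nxpe3 scored 21.1 and 25.9 in WT replicates 1 and 2, and that in Bri3bp 22.9 and 23.7. The last of the 15, near the glucagon receptor gene Gcgr, scored 23.5 and 23.3, nearly alike in the WT libraries.

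Of the 24 gene lists with 1519 genes, 83 of the 490 regions fell at a listed gene, 51 of them inside it. Those lists held 2156 distal regions well called in WT, so 3.85% of them lacked a Sphk2 KO peak, against 4.92% over all genes. Among the 13 lists with at least 50 such regions the share ran between 0% and 6.32%. Small counts underlie every share, and no list was tested. A count covers the genes on the list alone, and other genes of the same kind lie outside it.

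**Figure D4:**
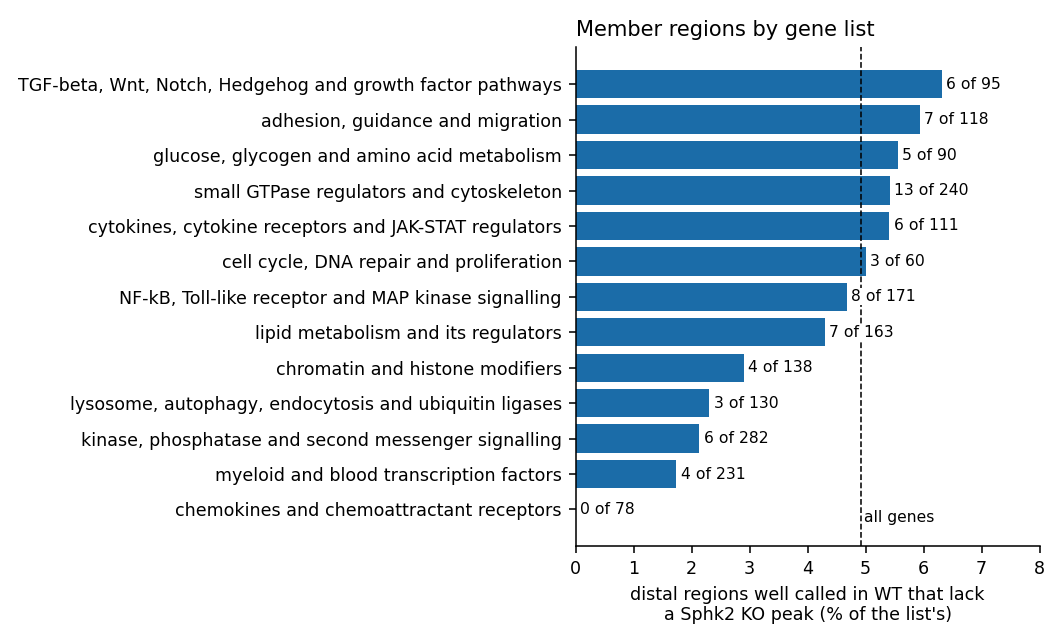
Share of each gene list's distal regions well called in WT that lacked a Sphk2 KO peak (x axis, percent), for the 13 lists with 50 or more such regions, with the counts beside the bars; the dashed line is the share over all genes, 4.92%. The lists lie between 0% (the chemokine and chemoattractant receptor list, which leaves out Ccl28, 0 of 78) and 6.32% (growth factor pathways, 6 of 95).

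Ligands and receptors of cytokines came with 6 of 111 distal regions (5.41%). Csf2, the gene of the growth factor GM-CSF, had a region 10084 bp from its end with −log10 q of 7.90 and 13.1 in WT replicates 1 and 2. Csf2rb, the shared receptor chain for GM-CSF and interleukin 3, had one 3811 bp away with 9.27 and 10.6, and a Sphk2 KO peak lay 783 bp from it. The receptor of G-CSF, Csf3r, held one at 13.2 and 8.69 and had no gene-end peak in any library. The other 3 regions were inside Il1rl1, the interleukin 33 receptor (13.8 and 9.06, with a Sphk2 KO peak 245 bp off), near Tnfrsf1b, a TNF receptor (17.4 and 11.97), and near Ptpn11, a phosphatase of receptor signalling (9.51 and 7.55). The share of the list lay near the 4.92% over all genes. The list of chemokines and chemoattractant receptors came with 0 of 78 regions. It leaves out Ccl28, a chemokine gene that held one of the 490 (18.5 and 12.3).

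Interferon genes came with 3 of 48 regions (6.25%, against 4.92% over all genes). Slfn4, whose transcript is induced by interferon in myeloid cells, had a region 1878 bp away with −log10 q of 15.6 and 12.5 in WT replicates 1 and 2. A Sphk2 KO peak lay 669 bp and a region called in all 4 libraries 434 bp from it. Ifit2, an antiviral effector, held one at 9.51 and 21.7, and Ifnar1, a chain of the type I interferon receptor, had one 9034 bp away at 7.13 and 18.5. The gene ends of all 3 were called in every library. Those of Ifit2 scored 9.10 and 16.7 in Sphk2 KO replicates 1 and 2, against 24.6 and 23.6 in WT replicates 1 and 2.

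NF-kB, Toll-like receptor and MAP kinase genes came with 8 of 171 regions (4.68%, against 4.92% over all genes). The best ranked was 39485 bp from Nfkb1, a subunit of NF-kB itself, at 13.8 and 24.3 in WT replicates 1 and 2. Tnip1, a partner of the NF-kB inhibitor A20, held a region at 14.2 and 13.6. Traf3, an adaptor, held one at 16.5 and 12.7, and Zc3h12a, an RNase that degrades cytokine mRNA, held one at 8.18 and 11.1. Zfp36l1, another mRNA decay factor, held one at 9.75 and 9.62, and near Dusp1, a MAP kinase phosphatase, a region scored 15.04 and 8.62. Map3k8, a kinase downstream of Toll-like receptors, had a region 1783 bp away at 17.4 and 8.61, with a Sphk2 KO peak 905 bp off. Tank, a regulator of TRAF signalling, held one at 7.90 and 8.30, and its gene-end peaks were absent from both Sphk2 KO libraries, against 7.13 and 9.06 in WT replicates 1 and 2.

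Regulators of small GTPases and the cytoskeleton were the list with most of the regions by count, 13 of 240. Their share of 5.42% lay near the 4.92% over all genes. Arap2, which inactivates Arf proteins, held a region at 12.02 and 20.1 in WT replicates 1 and 2, and the nearest Sphk2 KO peak was 87846 bp away. Myo9b, a myosin with a GTPase-activating domain, held one at 10.8 and 12.9, and the actin nucleator Diaph1 one at 10.5 and 13.9. Arhgef10l held one at 11.98 and 11.5, with no gene-end peak in any library. Arhgap25, a Rac regulator of phagocytes, held one at 9.51 and 16.3, and Rasgrp1, a Ras activator, held one of 1125 bp at 8.80 and 10.6. The remaining 7 regions lay at Rin3, Myo1e, Rapgef5 (2 regions), Prex1, Arhgef3 and Rap1a, with −log10 q between 7.13 and 13.5.

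Adhesion and guidance genes came with 7 of 118 regions (5.93%, against 4.92% over all genes). Those at semaphorins and at plexins, the receptors of semaphorins, are given together. Regions lay near Plxna1 (12.3 and 13.9 in WT replicates 1 and 2), inside Plxnb2 (10.8 and 8.92), inside Plxnc1 (8.59 and 8.25), near Sema4b (7.90 and 9.84) and near Sema4d (7.02 and 9.02). The others were inside Lcp1, an actin bundling protein of leukocytes (8.67 and 11.2), and inside Itgb5, an integrin chain (15.03 and 8.30).

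The list of lipid metabolism genes came with 7 of 163 regions (4.29%, against 4.92% over all genes). It leaves out several lipid genes at which further regions of the 490 lie, among them Slc27a3, Mboat1, Lipc, Pla2g6, Cers3 and Lipg. Nr1h3, which encodes the sterol-sensing nuclear receptor LXR alpha, held a region at 8.65 and 10.1 in WT replicates 1 and 2. Osbpl8, an oxysterol-binding transfer protein, had one 57150 bp away at 9.64 and 10.1. Tbxas1, thromboxane synthase, held one at 12.9 and 9.84, and Ppargc1b, a coactivator of mitochondrial genes, held one of 1131 bp at 8.69 and 8.65, with a Sphk2 KO peak 363 bp off. The ends of Nr1h3 and Osbpl8 were called in all 4 libraries, while those of Tbxas1 were called in none.

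Glucose and amino acid genes came with 5 of 90 regions (5.56%). Hmox1, the heme-degrading enzyme, had a region 9585 bp away at 22.0 and 14.0 in WT replicates 1 and 2. Pfkp, a phosphofructokinase of glycolysis, held one at 10.6 and 12.4, and the amino acid transporter gene Slc7a8 one at 13.8 and 10.6. The ends of Hmox1 were called in every library, at 17.5 and 52.0 in Sphk2 KO replicates 1 and 2, against 39.6 and 39.7 in WT replicates 1 and 2. Genes whose symbol begins with Slc, the solute carriers, held or neighboured 14 of 196 regions (7.14%, against 4.92% over all genes). Other families grouped by symbol had shares on both sides of 4.92%. Protein tyrosine phosphatases had 5 of 49 (10.2%) and the Rab family 1 of 56 (1.79%), and no family was tested.

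Kinase and second messenger genes came with 6 of 282 regions (2.13%, against 4.92% over all genes). Pik3r1, a regulatory subunit of PI 3-kinase, held a region at 20.5 and 17.1 in WT replicates 1 and 2. Prkar2b, a regulatory subunit of protein kinase A, held one at 21.6 and 14.2, and Prkce, a protein kinase C, one at 10.3 and 17.6. Itpr2 had one 19932 bp away at 7.90 and 13.1, and Adcy7, an adenylyl cyclase, held one at 14.1 and 9.30. The gene ends of Pik3r1 were called in every library, at 49.4 and 119 in Sphk2 KO replicates 1 and 2, against 76.9 and 91.6 in WT replicates 1 and 2.

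Myeloid and blood transcription factors came with 4 of 231 regions (1.73%, against 4.92% over all genes). Klf4, a factor of monocytes, had a region 12263 bp away at 10.3 and 14.9 in WT replicates 1 and 2. Klf13 held one at 10.4 and 9.10, Irf2 one at 7.13 and 8.30, and Bach2 one at 9.72 and 7.55. The gene ends of Klf4, Klf13 and Irf2 were called in every library. Chromatin genes came with 4 of 138 regions (2.90%), near Jarid2, a partner of the polycomb complex (14.7 and 23.3), in the DNA methyltransferase gene Dnmt3a (2 regions) and near the deacetylase gene Hdac4 (7.13 and 8.30).

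Pathways of TGF-beta, Wnt, Notch, Hedgehog and growth factors came with 6 of 95 regions (6.32%, against 4.92% over all genes). Met, the receptor of hepatocyte growth factor, had a region 20180 bp away at 12 and 14 in WT replicates 1 and 2. Acvr1b, an activin receptor, held one at 9.67 and 11.7, and Numb, a Notch inhibitor, held one at 10.3 and 11.1, with a Sphk2 KO peak 601 bp off. Igf1, a growth factor, and Smad1, a signal transducer of bone morphogenetic proteins, had regions at 7.13 and 8.72 and at 11.2 and 7.55. The cell cycle list came with 3 of 60 regions (5%), which included one in Cdk6 (11.5 and 9.84) and one near Cdkn1a, an inhibitor of cyclin-dependent kinases (7.80 and 8.97).

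The lysosome and ubiquitin list came with 3 of 130 regions (2.31%, against 4.92% over all genes). Rnf213, a large ubiquitin ligase, held the best ranked of them at 29.3 and 20.8 in WT replicates 1 and 2, and a Sphk2 KO peak lay 515 bp away. The others were near Snx18, a sorting nexin (13.8 and 19.1), and near Wwp2, a ubiquitin ligase (12.9 and 16.7). Death and survival genes came with 2 of 44, near Pmaip1, which promotes apoptosis (10.3 and 9.84), and inside Bcl2l1, which opposes it (13.8 and 7.23).

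The lists of cell type markers are short, and their shares stand on 0 to 2 regions each, beside 4.92% over all genes. Granulocyte markers had 1 of 40 (2.50%, Csf3r) and monocyte markers 2 of 47 (4.26%), near Klf4 and in the lectin receptor gene Clec12a (8.19 and 10.4 in WT replicates 1 and 2, with a Sphk2 KO peak 805 bp off). Dendritic cell genes had 1 of 36 (2.78%), in Cd83 (14.2 and 11.4). T and NK cell genes had 1 of 14 (7.14%), 56478 bp from Ctla4 (11.2 and 8.30). B cell genes had 2 of 12 (16.7%), in Pou2f2 (22.3 and 12.4) and Bach2, and stromal genes 1 of 9 (11.1%), in Pdgfrb (11.1 and 11.6). Erythroid and mast cell genes had 0 of 11, and genes silent in blood 0 of 9. Housekeeping genes had 2 of 18 (11.1%), near Actb (18.9 and 16.6) and near Ywhaz (9.51 and 7.77).

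More than 1 of the regions fell at 17 genes, which together took 39 regions. Tmcc3, a gene of an endoplasmic reticulum membrane protein, had 4 of them, the most of any gene. In and around its span 13 regions were called in any library, 0 in Sphk2 KO replicate 1 and 3 in Sphk2 KO replicate 2, against 11 in each of WT replicates 1 and 2. The 4 regions of the set scored 11.01, 10.2, 11.9 and 7.74 in WT replicate 1 and 13, 9.30, 13.3 and 9.31 in WT replicate 2. Another 3 were WT-only below the limit, and none of the 13 was called in all 4 libraries. The 3 regions with a peak in Sphk2 KO replicate 2 scored 9.68, 5.81 and 5.41 there. No library had a peak at a Tmcc3 gene end. Tmcc3 was singled out for its count of regions called in WT alone, and the library without a call there, Sphk2 KO replicate 1, has the fewest peaks of the 4.

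Anxa6, which encodes a calcium-dependent membrane-binding annexin, held 3 of the regions among 8 called in any library. They scored 11.9, 10.3 and 10.3 in WT replicate 1 and 19.5, 10.1 and 19.6 in WT replicate 2. On either side of them 1 region was called in all 4 libraries, and the region between them that was called in Sphk2 KO replicate 2 (5.67) scored 1.90 and 2.29 in WT replicates 1 and 2. The peak at the Anxa6 gene end scored 6.65 and 22.6 in Sphk2 KO replicates 1 and 2, against 17.7 and 22.5 in WT replicates 1 and 2. Lipg, the gene of endothelial lipase, which cleaves phospholipids of lipoproteins, had 1 region inside and 2 beside it. These scored 12.5, 14.7 and 19.5 in WT replicate 1 and 12.5, 14.0 and 9.84 in WT replicate 2. Another region at its upper end was called in every library, at 15.7 and 45.1 in Sphk2 KO replicates 1 and 2, against 40.2 and 42.2 in WT replicates 1 and 2.

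**Figure D5:**
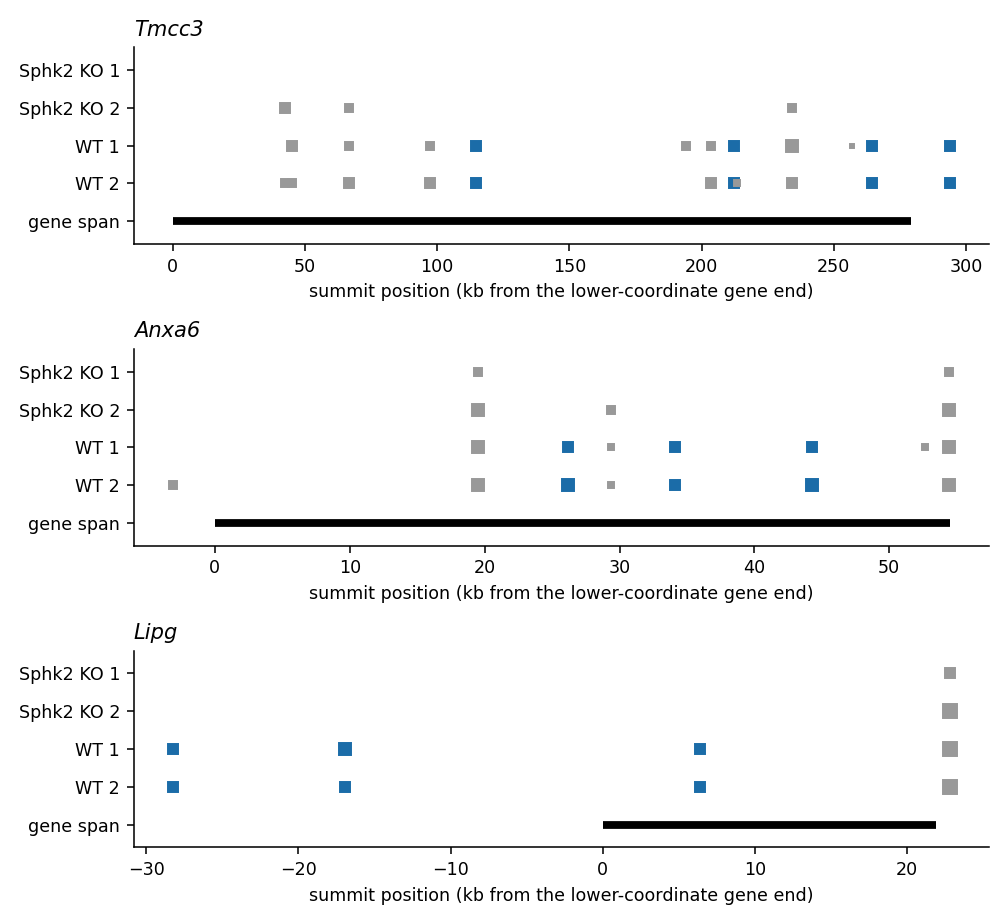
Called regions at Tmcc3, Anxa6 and Lipg by library (rows, Sphk2 KO above WT), placed by the summit's distance in kb from the lower-coordinate gene end (x axis); blue squares are regions of the set, grey squares other called regions, squares grow with −log10 q, and the black bar is the gene. At Tmcc3 the Sphk2 KO replicate 1 row is empty and 3 regions are called in Sphk2 KO replicate 2, against 11 in each WT library.

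Lpp, the gene of a focal adhesion protein, held 3 regions (9.51, 8.69 and 12.9 in WT replicate 1 and 9.84, 9.84 and 7.55 in WT replicate 2) among 23, of which 8 were called in all 4 libraries. Gcgr had 2 regions next to it, and the nearest Sphk2 KO peaks lay 7633 and 1383 bp from them. In Usp6nl, which inactivates Rab GTPases, both regions lay side by side, and 4 of the 5 regions at that gene were WT-only. A gene end of Usp6nl was called in every library, at 9.79 and 18.2 in Sphk2 KO replicates 1 and 2, against 23.8 and 30.7 in WT replicates 1 and 2. Dnmt3a held 2 regions (9.23 and 9.57 in WT replicate 1 and 13.8 and 10.2 in WT replicate 2) among 7, with 2 called in all 4. Bcr, Tagap, Wwox, Usp12, Sntb2, Rapgef5, Myl12b, Hs6st1, Corin and Atp6v1g3 had 2 regions each. At all 10 of these loci at least 1 other region was called in all 4 libraries.

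Of the 256 host genes 183 held at least 1 region called in all 4 libraries and 73 held none. In 27 the WT-only region was the sole region called in any library within the gene or 1 kb of it. Among these, after Kifap3, were Ptpn5, a tyrosine phosphatase known from neurons (24.6 and 18.4 in WT replicates 1 and 2) and Emid1.

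Most of the genes concerned had a called gene end in Sphk2 KO cells. Of the 446 genes that held a region or were nearest to one, 251 (56.3%) carried a gene-end peak (no more than 1 kb from an end) in Sphk2 KO replicate 1 and 284 (63.7%) in Sphk2 KO replicate 2, against 288 (64.6%) in WT replicate 1 and 300 (67.3%) in WT replicate 2. All 4 libraries had one at 241 genes (54.0%), and no library at 133 (29.8%). Among 3886 genes with a shared distal region and none of the 490, the share with one in all 4 libraries was 53.3%.

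At 281 of the 446 genes both WT libraries had a gene-end peak, and 11 of those (3.91%) had none in either Sphk2 KO library, against 2.94% over all autosomal genes with a peak in both WT libraries. The 11 are Aoah, Bin1, Dock6, Echdc3, Fth1, Grap2, Kif3c, Nlrc4, Plekho1, Tank and Zmiz1. Nlrc4, a sensor adaptor of the inflammasome, had a distal region at 22.5 and 17.6 and gene-end peaks at 4.94 and 8.47 in WT replicates 1 and 2. Aoah, which inactivates bacterial lipopolysaccharide, had 7.36 and 9.20 in the distal region and 2.06 and 5.73 at the gene end. Grap2, an adaptor of leukocyte signalling, had 13.8 and 13.5 in the distal region and 8.69 and 5.42 at the gene end. Dock6, an exchange factor for Rac and Cdc42, had 7.07 and 9.83, and 8.34 and 20.9. Fth1, the ferritin heavy chain, had 11.2 and 14.5, and 6.09 and 6.33. At these genes the gene end and a distal region lacked Sphk2 KO calls together, and their gene-end peaks in WT were weak beside those of Nkiras2 or Ubxn6. Other Sphk2 KO peaks can still lie at such a gene. Within the gene or 1 kb of it, Fth1 had 1 region called in all 4 libraries and Grap2 had 2, while Nlrc4 had 0.

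Retained fragments numbered 25877428 and 27686223 in Sphk2 KO replicates 1 and 2, against 33859480 and 34443062 in WT replicates 1 and 2, and autosomal peaks 20412 and 26997, against 31036 and 31361. Of 15 markers of Gr1+CD11b+ myeloid cells 10 and 11 had a gene-end peak in Sphk2 KO replicates 1 and 2, against 12 and 12 in WT replicates 1 and 2, and their summed −log10 q was 178 and 376, against 300 and 326. Ly6g, Ly6c1 and Csf3r had none in any library. Of 10 T cell or EL4 markers 1 and 2 had one, against 1 and 3, with Cd3d alone in all 4. None of 5 B cell markers had one in any library, and of 5 stromal markers only Col1a1 had one, in Sphk2 KO replicate 2 and in both WT libraries. Sphk2 itself had a peak at its upper end in every library, at 28.0 and 70.5 in Sphk2 KO replicates 1 and 2, against 61.6 and 73.4 in WT replicates 1 and 2, and another region inside it in the Sphk2 KO libraries alone, at 26.4 and 42.2. Which part of Sphk2 was deleted is unknown here, so these peaks do not check the labels.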

How the data were processed

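Peak lists of 4 ATAC-seq libraries, 2 Sphk2 KO and 2 WT, were used as deposited. The submitters' processing notes name cutadapt, BWA, MACS2 and, as the build, mm10. Per the file headers, the authors called peaks for each library separately with MACS 2.1.1.20160309, using paired-end fragments and no control library, a q-value threshold of 0.05, a local background of 10 kb and 1 fragment kept per position. A shift of read ends for Tn5 is not recorded there. Each deposited list gives the pileup, a coverage signal not scaled to depth, and the −log10 of the p-value and of the q-value. The fold enrichment in each deposited list is the authors' value, a ratio over local background computed by the authors before deposit. All these values were used as deposited and were not adjusted for the number of fragments in a library. Scores of different libraries are printed side by side as a description only, and their differences were not tested. Fragments per library are given at the end of the report, and a region without a peak may still be open below the threshold.

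Peaks were merged, filtered and assigned with Python 3.11.15, pandas 2.3.3 and NumPy 2.4.6, and intervals for shares, which cover counting error only, came from SciPy 1.17.1. A summit inside a protein-coding gene was assigned to that gene, otherwise to the nearest gene end within 100 kb, from the RefSeq table for GRCm38.p6, which gives no strand, exons or introns. Sequences are those of RefSeq for the same assembly, and no region sequence beyond them was used here. Coordinates count from 1. The merging and filtering were tested on simulated peak lists with planted regions. Regions were ranked by the worse of their 2 ranks by −log10 q in the WT lists. Named were the 15 best ranked, up to 6 for each gene list, genes with 2 or more regions, regions at the limits, the 3 widest and the 3 farthest from genes; some items this rule takes are not reported here, and others were named after their values were seen, such as genes with internal starts, those lacking gene-end peaks in Sphk2 KO libraries, and hosts with no other region. The regions, gene lists and settings were chosen with earlier results of these data known. Other settings tried were score limits of 5 and 10, gene distances, merging distances, windows around summits, equal numbers of peaks, and each library left out.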

Additional observations from a re-analysis of the deposited data

Results flagged for a closer look

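The sex chromosomes were left out of the set above. By the same rule chromosome X held 7 WT-only regions among 144 tested, beside a share of 4.92% on the autosomes. It held 0 Sphk2 KO-only regions, and is listed because it lies outside the autosomal regions described. Chromosome Y held 2 WT-only regions among only 3 tested and 0 Sphk2 KO-only regions, and is listed for the same reason.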

How the results depend on the processing

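No paired analysis was possible because the results come from no test, although both genotypes carry replicate numbers 1 and 2. The 490 regions became 847 at a −log10 q of 5 and 203 at 10, and numbered between 563 and 1705 with a library left out. The number was 1303 without WT replicate 1, 1009 without WT replicate 2, 563 without Sphk2 KO replicate 1 and 1705 without Sphk2 KO replicate 2. With a library left out, the rule asked for a peak, or for none, in the single remaining library of that genotype. Such counts, mirrored ones included, rest on a looser rule than the main count. The mirrored 30 regions became 62 at 5, 13 at 10, 50 with windows around summits and 91 with equal numbers of top peaks, and lay between 52 and 468 with a library left out, the highest without Sphk2 KO replicate 1, where the WT-only count was 563. At scores of 5 and 10 the host genes numbered 424 and 108, the regions at listed genes 163 and 32, and the median smaller −log10 q was 7.55 and 12.5. With a library left out the host genes numbered between 286 and 818, the regions at listed genes between 95 and 305, and the median smaller score lay between 9.51 and 10.3. The share inside genes then lay between 49.6% and 53.4%, and the share of genes with gene-end peaks in every library between 52.8% and 60.1%. The median distance to a gene end, 14060 bp in the main setting, lay between 11920 and 16940 bp in every setting tried. A region without a call may still be open below the threshold, and no setting tried removes that limit.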
